A study of Mus musculus with 6 samples.

Results

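Translation initiation and elongation factors load messenger RNA onto ribosomes and move ribosomes along it, and here their transcripts were followed in mouse bone marrow mesenchymal stem cells after loss of the formin Dia2. The genes were chosen by a symbol pattern, with earlier results of these data known. The pattern took every row named Eif1 to Eif6 or Eef1 to Eef2, apart from the Argonaute rows named Eif2c and the kinase rows named Eif2ak. This gave 58 of the 23358 rows of the gene count table, of which 55 had enough counts to be tested, beside 14151 tested genes in all. Libraries came from C57BL/6 marrow-derived mesenchymal stem cells at passage 6 to 12, transfected overnight by Lipofectamine RNAiMax at 50 nM either with a Dia2 siRNA (3 libraries) or with a non-targeting control siRNA (3 libraries). Cells had adhered for 24 h before transfection, and RNA was taken 24 h after the transfection medium was replaced. Both groups carried the same strain, lipid and dose. A single Dia2 siRNA sequence is given, so effects of that sequence on other transcripts cannot be told apart from effects of lower Dia2. Whether replicate libraries stem from separate cultures is not stated in the labels, and p-values therefore reflect library-to-library spread that could be technical.

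Initiation begins when eIF2 carries the initiator tRNA to the small ribosomal subunit, where eIF1, eIF1A, eIF3 and eIF5 assemble with it, and eIF2B afterwards recharges eIF2 with GTP. The cap of the mRNA is bound by eIF4E, which joins the scaffold eIF4G and the helicase eIF4A. The 4E-binding proteins compete with eIF4G for eIF4E and let go of it when the kinase mTORC1 phosphorylates them. In elongation, eEF1A delivers aminoacyl-tRNA, eEF2 moves the ribosome by a codon, and eIF5A helps peptide bonds to form at difficult stretches. These levels are of mRNA. Translation itself and the phosphorylation that controls many of these proteins were not measured.

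The targeted gene, Diaph3 (listed as Diap3), was measured at 7.52, 8.37 and 7.39 CPM in Dia2 replicates 1, 2 and 3, against 84.7, 80.1 and 84.8 CPM in control replicates 1, 2 and 3. CPM is a gene's count scaled to the library's total, with a TMM correction for composition. The groups were far apart, and the mean was 7.76 ± 0.532 CPM in Dia2 cells and 83.2 ± 2.7 CPM in control cells (SD, n = 3 each; log2 fold change -3.42 ± 0.07 SE, adjusted p = 1.66e-11). Adjusted p-values here and below come from edgeR's quasi-likelihood test with Benjamini-Hochberg adjustment over all tested genes, and a gene was called higher or lower at an adjusted p under 0.05.

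Total counts per library lay between 78529650 and 95573070 in the Dia2 group and between 70538768 and 110006338 in the control group. Every count was even, and if each fragment was counted as 2, a floor of 3 fragments (6 counts) corresponds to 0.0534 to 0.087 CPM. The ribosomal precursor Rn45s took 10.9%, 7.41% and 6.05% of counts in Dia2 replicates 1, 2 and 3, against 6.05%, 6.0% and 11.7% in control replicates 1, 2 and 3, so Dia2 replicate 1 and control replicate 3 stood apart. Of 8 mesenchymal stem cell markers 7 were tested, and all 7 were higher in Dia2 cells, with a summed level of 2929 to 3004 CPM in Dia2 cells and 2103 to 2171 CPM in control cells. Thy1, a defining marker of these cells in many settings, was at 0 to 0.107 CPM. Of 7 blood and macrophage markers 4 were tested and 3 were lower, with a summed level of 4.85 to 7.03 CPM in Dia2 cells and 10.6 to 11.5 CPM in control cells. Ptprc, Adgre1 (listed as Emr1) and Itgam were at 0.133 CPM or less in every library. Csf1r was at 2.34 to 3.61 CPM across the libraries and was not called (log2 fold change 0.03). The 3 lower genes, Cd53, Itgb2 and Cd68, were at 0.417 to 1.39 CPM in Dia2 cells and 1.8 to 3.71 CPM in control cells. Of 4 endothelial markers 3 were tested and 1 was lower, with a summed level of 0.812 to 0.958 CPM in Dia2 cells and 1.34 to 1.51 CPM in control cells, and Cdh5 was at or near 0. Beside these marker counts, 29.3% of all 14151 tested genes were higher and 29.9% lower. These summed marker levels moved with the groups beside every result below, and their part in the results was not tested. In RNA from bulk cultures, fewer cells expressing a gene and less RNA per cell cannot be told apart.

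Among the 55 tested factors, 28 were lower (50.9%) and 6 were higher (10.9%) in Dia2 cells, and 21 did not pass the test. In either direction 61.8% of the factors were called, and 59.2% of all 14151 tested genes were. Over those genes, 29.9% were lower and 29.3% higher. The median log2 fold change was -0.16 over the factors and 0.01 over all tested genes. Most factors are abundant, and 42 had a mean of at least 50 CPM. Of these 42, 23 were lower (54.8%) and 3 higher (7.14%), beside 40.1% lower and 31.3% higher among the 4093 tested genes at that level. The changes were small: the median absolute log2 fold change was 0.22 over the factors and 0.30 over all tested genes, and Eif4ebp2 alone among the called factors passed 2-fold, where 8.58% of tested genes did. All libraries of one group lay beyond all libraries of the other for 36 factors, 7 higher and 29 lower, beside 64.6% of all tested genes. Without control replicate 3, 9 factors were higher and 34 lower, and calls over all tested genes were also more numerous in that fit, at 4512 higher and 4681 lower beside 4145 higher and 4235 lower with all libraries.

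**Figure D1:**
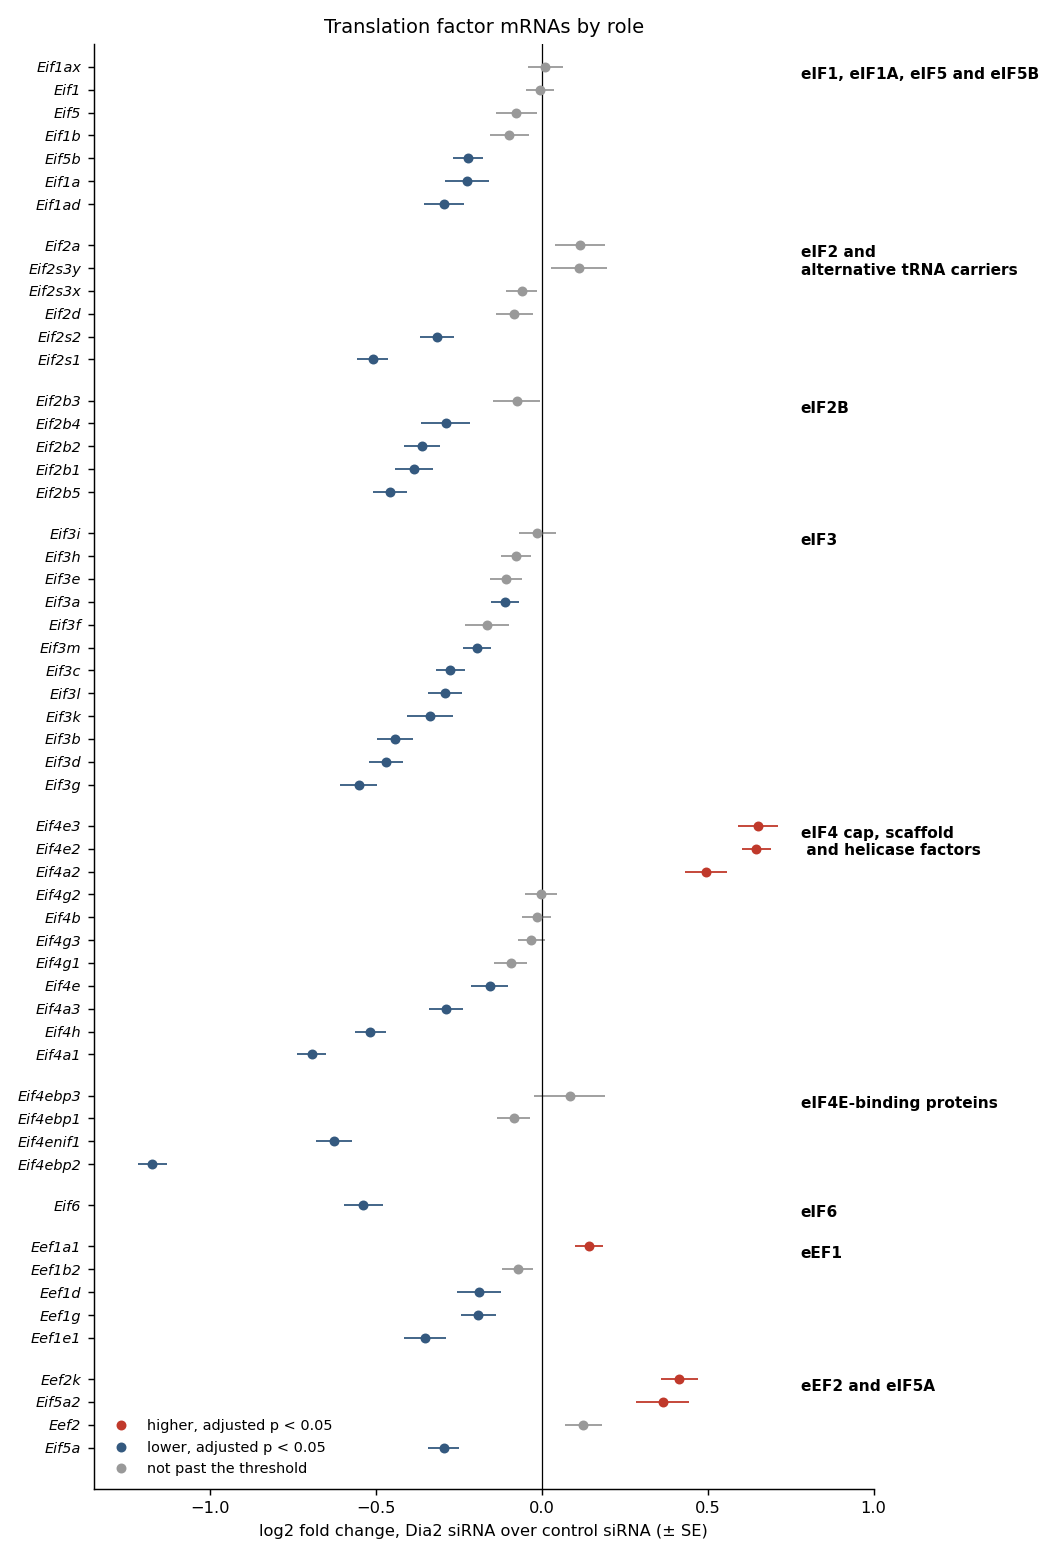
Log2 fold change of each tested factor (points; bars are ± 1 SE), Dia2 siRNA over control siRNA, grouped by role, with colour for the call at an adjusted p of 0.05. The 28 lower factors include Eif4ebp2 at -1.17 and Eif4a1 at -0.69, and the 6 higher ones include Eif4e2 and Eif4e3, both at 0.65.

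The largest change was in a gene whose protein restrains the cap-binding factor. Eif4ebp2 encodes the 4E-binding protein best known from neurons. It lies on chromosome 10 from 61432497 to 61452669 (GRCm38), on the minus strand. Its level was 51.2, 51.8 and 52.3 CPM in Dia2 replicates 1, 2 and 3, against 119.7, 117 and 114 CPM in control replicates 1, 2 and 3. Every Dia2 library lay far below every control library, and the means of 51.8 ± 0.562 CPM in Dia2 cells and 117 ± 2.93 CPM in control cells (SD, n = 3 each) differed 2.26-fold (log2 fold change -1.17 ± 0.04, edgeR adjusted p = 1.3e-09). Eif4enif1, which encodes the shuttling protein 4E-T that carries eIF4E into the nucleus and to sites of mRNA repression, had 33.9, 33.4 and 35.6 CPM in Dia2 cells, against 54.5, 53.3 and 51.1 CPM in control cells. It fell 1.54-fold with no overlap between groups (log2 fold change -0.63 ± 0.05, edgeR adjusted p = 1e-06).

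The other 4E-binding proteins did not pass the test. Eif4ebp1, the most studied target of mTORC1 in this family, had 88.3, 87.7 and 90.3 CPM in Dia2 cells, against 98.4, 95.9 and 88.1 CPM in control cells. Control replicate 3 lay within the Dia2 range (log2 fold change -0.08 ± 0.05, edgeR adjusted p = 0.164), and without that library Eif4ebp1 passed at -0.13 (edgeR adjusted p = 0.00206). Eif4ebp3 was scarce, at 5.42 to 7.01 CPM in Dia2 cells and 5.48 to 6.32 CPM in control cells (0.08 ± 0.11, edgeR adjusted p = 0.524). As a share of the summed CPM per kilobase of coding length of these 3 paralogs, Eif4ebp2 made up 23.2% ± 0.237 in Dia2 cells and 39.4% ± 0.804 in control cells (SD, n = 3 each), and Eif4ebp1 made up 72.5% ± 0.405 in Dia2 cells and 57.6% ± 0.777 in control cells. The shares did not overlap between groups, and the exact two-sided permutation test gave p = 0.1 for each, the smallest that 3 libraries against 3 allow (0.142 after Benjamini-Hochberg adjustment over 17 shares of paralog families). All shares of paralogs below are taken on the same scale per length.

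Cap-binding proteins moved apart from one another. Eif4e, the main cap-binding protein, had 102, 95.1 and 93.1 CPM in Dia2 cells, against 107, 101 and 115 CPM in control cells. The groups overlapped, and Eif4e was lower by a small amount (log2 fold change -0.16 ± 0.06, edgeR adjusted p = 0.0285) that did not pass without Dia2 replicate 2 (edgeR adjusted p = 0.103) or Dia2 replicate 3 (0.0984). Eif4e2 encodes 4EHP, a cap-binding protein that does not join eIF4G and is known for repressing selected mRNAs. Its level was 103, 103 and 106 CPM in Dia2 cells, against 68.1, 66.5 and 64.5 CPM in control cells, a 1.57-fold rise with no overlap (0.65 ± 0.04, edgeR adjusted p = 1.58e-07). Eif4e3, a cap-binding protein of atypical structure, rose by the same factor from a lower base: 19.9, 19.1 and 19.2 CPM in Dia2 cells, against 11.7, 12.4 and 12.9 CPM in control cells (0.65 ± 0.06, edgeR adjusted p = 1.98e-06). Eif4e accounted for 53.8% ± 1.27 of the summed level per length of the 3 genes in Dia2 cells and 67.0% ± 1.6 in control cells (SD, n = 3 each; exact permutation p = 0.1). Eif4e1b, a germline form, had counts in 1 Dia2 library (0.0208 CPM) and in no control library, below the floor, and was not tested.

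**Figure D2:**
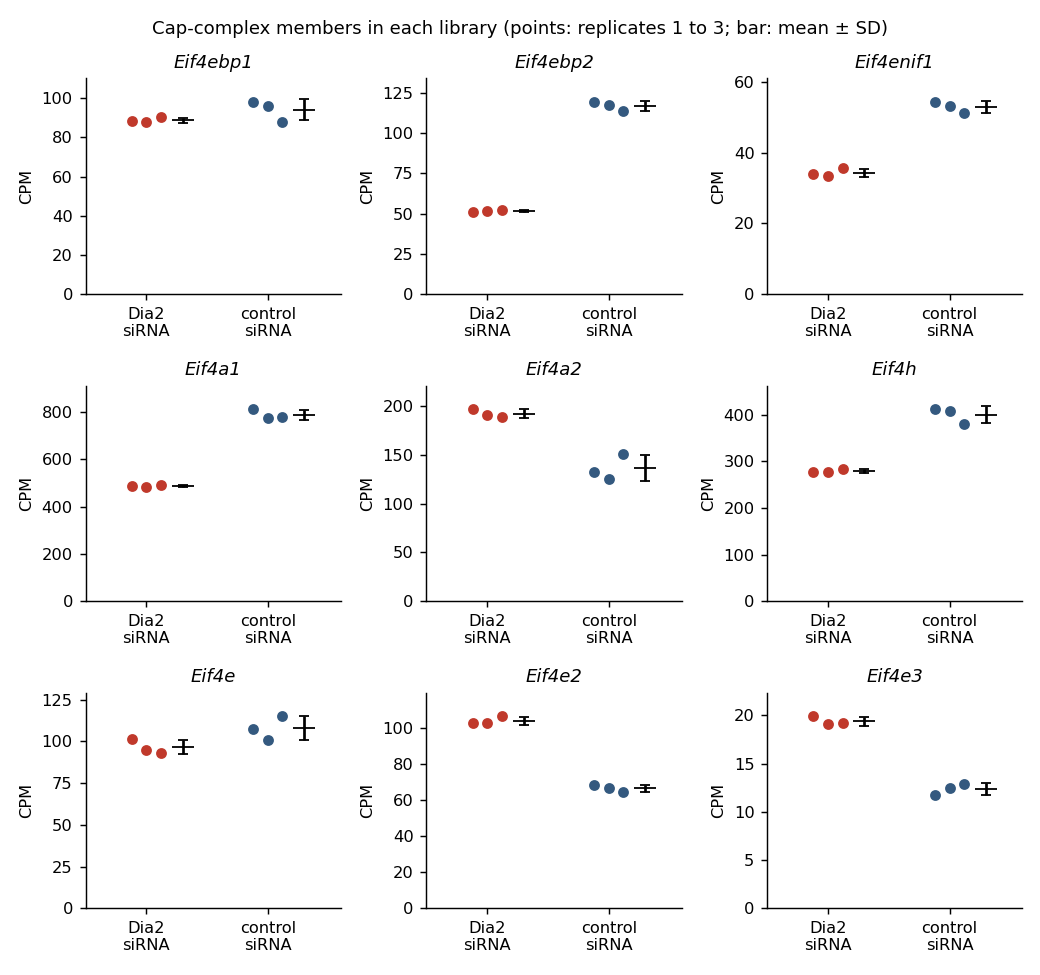
CPM of 9 cap-complex genes in each library (points), with mean ± SD of 3 libraries beside them, Dia2 siRNA left of control siRNA in each panel, each axis starting at 0. The groups are apart for Eif4ebp2, Eif4enif1, Eif4a1, Eif4a2, Eif4h, Eif4e2 and Eif4e3, and they overlap for Eif4e and Eif4ebp1.

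The helicase paralogs changed in opposite directions. Eif4a1 encodes the abundant eIF4A of growing cells and lies on chromosome 11 from 69666936 to 69672423. Its level was 489, 482 and 492 CPM in Dia2 cells, against 813, 775 and 777 CPM in control cells. It fell 1.62-fold with no overlap (log2 fold change -0.69 ± 0.04, edgeR adjusted p = 8.98e-08). Eif4a2, on chromosome 16 from 23107479 to 23114132, encodes a near relative that has been studied for a part in repression by microRNAs. Its level was 197, 191 and 189 CPM in Dia2 cells, against 132, 126 and 151 CPM in control cells, a 1.41-fold rise with no overlap (0.49 ± 0.06, edgeR adjusted p = 2.56e-05). The share of Eif4a2 in the level per length of both genes was 19.3%, 19.0% and 18.5% in the Dia2 libraries, against 8.8%, 8.78% and 10.3% in the control libraries. The difference of 9.64 percentage points had an exact permutation p of 0.1, and it ranged from 9.37 to 10.15 points as each library was left out. The Eif4a2 interval overlaps that of Rfc4 by 185 bases, and Rfc4 was at 20.6 CPM, so a part of either count could belong to the other.

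Of the helicase partners, Eif4h fell and Eif4b did not pass the test. Both proteins stimulate eIF4A. Eif4h had 277, 278 and 284 CPM in Dia2 cells, against 413, 408 and 379.9 CPM in control cells (1.43-fold lower, log2 fold change -0.52 ± 0.05, edgeR adjusted p = 1.84e-06), while Eif4b averaged 669 ± 9.62 CPM in Dia2 cells and 676 ± 14.2 CPM in control cells (SD, n = 3 each; -0.02 ± 0.04, edgeR adjusted p = 0.775). Eif4a3, a helicase of the exon junction complex and not of cap binding, fell 1.22-fold (-0.29 ± 0.05, edgeR adjusted p = 0.000477). None of the 3 scaffold genes passed. Eif4g1 had 914, 922 and 929 CPM in Dia2 cells, against 1029, 1001 and 920.2 CPM in control cells, where control replicate 3 lay within the Dia2 range (-0.09 ± 0.05, edgeR adjusted p = 0.123). Without that library Eif4g1 passed at -0.14 (edgeR adjusted p = 0.00031). Eif4g2, also called DAP5, which lacks the eIF4E-binding region, averaged 1468 ± 49.3 CPM in Dia2 cells and 1470.4 ± 64 CPM in control cells (SD, n = 3 each; edgeR adjusted p = 0.967), and Eif4g3 averaged 107 ± 1.82 CPM in Dia2 cells and 109 ± 1.07 CPM in control cells (edgeR adjusted p = 0.536).

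**Figure D3:**
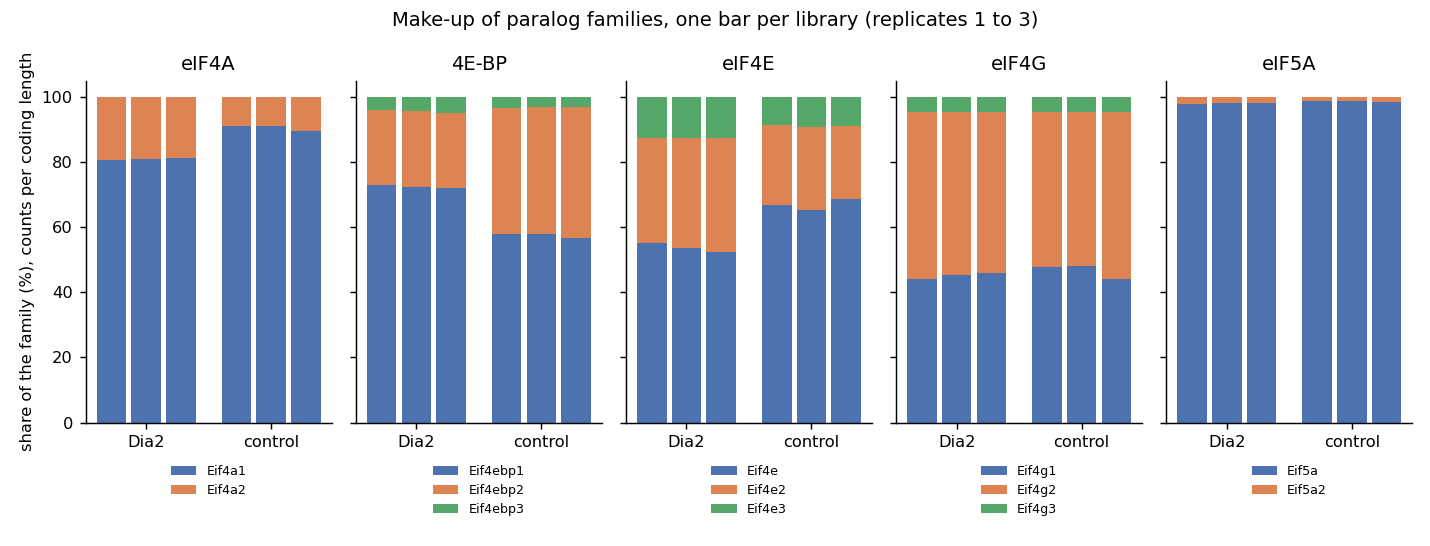
Stacked bars, 1 per library, of each paralog's share (percent) of the summed CPM per kilobase of coding length of its family, Dia2 siRNA left of control siRNA. Eif4a2 is at 18.5% to 19.3% in Dia2 libraries and 8.78% to 10.3% in control libraries, and Eif4ebp2 at 23.0% to 23.5% in Dia2 libraries and 38.8% to 40.3% in control libraries.

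The promoters of the helicase pair are shown because their transcripts moved in opposite directions. They are RefSeq sequences on GRCm38.p6, from 250 bases before to 50 after the start, written 5′ to 3′ on the gene's strand. Capitals mark matches, on either strand, to CACGTG (the E-box bound by Myc and related factors) and CCAAT (the box bound by NF-Y).
Eif4a1, chr11:69672374-69672673, minus strand: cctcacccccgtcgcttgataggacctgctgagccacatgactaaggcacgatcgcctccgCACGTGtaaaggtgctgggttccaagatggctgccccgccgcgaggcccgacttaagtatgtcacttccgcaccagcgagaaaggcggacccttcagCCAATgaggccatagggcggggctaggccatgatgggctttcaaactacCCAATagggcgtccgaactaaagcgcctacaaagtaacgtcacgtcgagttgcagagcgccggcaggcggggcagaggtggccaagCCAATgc
Eif4a2, chr16:23107218-23107517, plus strand: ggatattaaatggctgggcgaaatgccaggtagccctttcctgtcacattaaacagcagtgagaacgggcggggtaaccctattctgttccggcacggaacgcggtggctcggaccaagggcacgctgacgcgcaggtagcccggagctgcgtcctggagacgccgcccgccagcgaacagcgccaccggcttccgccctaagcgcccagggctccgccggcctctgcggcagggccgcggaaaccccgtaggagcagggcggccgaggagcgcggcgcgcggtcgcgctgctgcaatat
The Eif4a1 window held 1 E-box, at -189, and 3 CCAAT boxes, at -92, -43 and 43, counted from 0 at the start base, while the Eif4a2 window held neither word. GC content was 60.7% for Eif4a1 and 67.7% for Eif4a2.

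Promoter windows were found for 44 of the 58 factors, 58 windows in all because some genes have several starts. The E-box was in 24.1% of factor windows and in 7.15% of all 32851 mouse windows. The 12 factors that held it comprised 6 lower, 2 higher and 4 others. Over all tested factors 50.9% were lower and 10.9% higher, and over all tested genes 29.9% and 29.3%. The counts of factors with each word stand beside those shares. CCAAT was in 24.1% of factor windows and 37.4% of all windows, and the 14 factors with it comprised 10 lower, 1 higher and 3 others. The word CCGGAAG, bound by ETS factors, was in 32.8% of factor windows and 8.86% of all windows, and the 16 factors with it comprised 11 lower, 2 higher and 3 others. Other, rarer words were also searched on both strands. TGACGTCA (the cyclic AMP response element) was in 1.72% of factor windows and 1.79% of all windows, and TGATGNAA (the core of the amino acid response element) was in 3.45% of factor windows and 3.97% of all windows. Among factors with the E-box, the CCAAT box or the ETS word, both directions of change occurred. The cyclic AMP element was in Eef2 alone, which was not called, and the amino acid element was in Eef2k, which rose, and Eif2s3x, which did not pass. In Eef2k it was only in the window of the start farthest downstream, chr7:120850939-120851238. The Eef2k windows chr7:120842581-120842880 and chr7:120843350-120843649 lacked it. A start of C followed by 4 pyrimidines, the beginning of the terminal oligopyrimidine tract that puts many translation mRNAs under mTORC1, was at the annotated start of 3.45% of factor windows and 2.51% of all windows. Only the exact annotated start base was read, so a tract that begins some bases away was not counted. The annotated start read TTCCC in Eef1a1 and GTTGA in Eef2, and neither matched. The shares therefore do not tell how many factors carry the tract.

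Words in the 3′ UTRs were examined next. As background, an siRNA can lower other transcripts that pair with its seed. AACTTAA is the target of bases 2 to 8 of the siRNA's antisense strand. All 55 tested factors and 13182 of the 14151 tested genes had an annotated 3′ UTR. The word was in 8 factors (14.5%; 13.8% of all genes), of which 3 were lower and 2 higher, and of the 1824 tested genes with it 509 were lower and 647 higher. The median log2 fold change was -0.06 for factors with the word and -0.19 for those without, and over all genes it was 0.05 with the word and -0.01 without. The sites of 3 called factors are printed with the word in capitals, on GRCm38 and on the gene's strand, because they include the factor with the largest fall and one that rose.
Eif4ebp2, chr10:61429262-61429288, minus strand: ctgttggcagAACTTAAcgtcaggtga
Eif4h, chr5:134620093-134620119, minus strand: accaatacctAACTTAAgacagacatg
Eif4e2, chr1:87233873-87233899, plus strand: ttacaatagaAACTTAAaatgacttcc
The overlapping words ATGTGAA and TATGTGA, taken up because an earlier reading of these data had singled them out, were in 14 factors (25.5%; 24.3% of all genes), 9 lower and 1 higher, and of the 3204 tested genes with either word 1262 were lower and 848 higher. The median log2 fold change was -0.19 for factors with either word and -0.11 for those without, and over all genes it was -0.06 with and 0.02 without. Both words were singled out in the same data, so these counts and medians are not independent evidence. Examples from 3 of the factors with large falls follow.
Eif4ebp2, chr10:61431948-61431974, minus strand: ctgctacacaATGTGAAatagctcgga
Eif4enif1, chr11:3244178-3244204, plus strand: ggagcacactATGTGAAgatgtttagg
Eif6, chr2:155825835-155825861, minus strand: cgctcggaacTATGTGActtacagagt
Both Eif4ebp2 sites lie in the GENCODE 3′ UTR but beyond the end of the interval that the count table gives for the gene. A word was counted if the 3′ UTR of any annotated transcript of the gene held it. The Eif6 site was read from transcript Eif6-202. It lies near the 5′ end of the gene's counted interval, 155819837 to 155826925, and far from its 3′ end. Words that match are descriptions of the sequence, and their part in the changes was not tested. A further word from that reading, GCAGTAC, was in 3 factors, 2 of them lower (Eef1d and Eif4e). Of the 805 tested genes with it 165 were lower and 401 higher, with a median of 0.22. Its counts are likewise not independent of that choice.

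Of the factors that bring the initiator tRNA, the regulatory subunit fell most. Eif2s1 encodes eIF2α, the subunit whose phosphorylation slows translation under stress. Its level was 107, 101 and 101 CPM in Dia2 cells, against 149, 139 and 152 CPM in control cells. It fell 1.42-fold with no overlap (log2 fold change -0.51 ± 0.05, edgeR adjusted p = 2.14e-06). Eif2s2, the β subunit, averaged 199 ± 5.83 CPM in Dia2 cells and 248 ± 14.6 CPM in control cells (SD, n = 3 each; -0.32 ± 0.05, edgeR adjusted p = 0.000201). The γ subunit is encoded on both sex chromosomes, and neither copy passed: Eif2s3x had a log2 fold change of -0.06 (edgeR adjusted p = 0.287) and Eif2s3y of 0.11 (edgeR adjusted p = 0.276). Eif2a and Eif2d, whose proteins can bring tRNA to ribosomes without eIF2, did not pass either (0.12 and -0.08). Without control replicate 3, Eif2a passed at 0.22 (edgeR adjusted p = 0.000238) and Eif2s3y at 0.23 (edgeR adjusted p = 0.00107). The Eif2a interval overlaps that of Serp1 by 64 bases. Serp1 averaged 157 CPM and Eif2a 71.8 CPM, so a part of either count could belong to the other.

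Genes of eIF2B, the exchange factor that reloads eIF2 with GTP, were lower in 4 of 5 cases, beside 29.9% of all tested genes. Eif2b5, the catalytic subunit, had 79.3, 82.5 and 83.1 CPM in Dia2 cells, against 115, 117 and 104 CPM in control cells (1.37-fold lower, log2 fold change -0.46 ± 0.05, edgeR adjusted p = 1.06e-05). Eif2b1 (-0.39), Eif2b2 (-0.36) and Eif2b4 (-0.29) also fell, and Eif2b3, the scarcest factor per length among those tested, did not pass (-0.08, edgeR adjusted p = 0.377). Summed over the 5 subunits the level was 205 to 209 CPM in Dia2 libraries and 249 to 279 CPM in control libraries.

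The genes grouped by symbol with eIF1, eIF1A, eIF5 and eIF5B moved less. Among eIF1, eIF1A, eIF5 and eIF5B genes, 3 of 7 were lower and none higher, beside 29.9% and 29.3% of all tested genes. Eif5b, the GTPase that joins the large subunit, had a log2 fold change of -0.22 ± 0.05 (edgeR adjusted p = 0.00119), and its interval overlaps that of Rev1 by 2794 bases. Eif1ad, whose protein acts in maturation of the small subunit, was at -0.29 ± 0.06 (edgeR adjusted p = 0.00114). Eif1a was at -0.23 ± 0.07 (edgeR adjusted p = 0.0119) with overlap between groups, and it did not pass without Dia2 replicate 2 (edgeR adjusted p = 0.0539). Eif1, which guards the choice of start codon, averaged 327 ± 1.77 CPM in Dia2 cells and 329 ± 7.27 CPM in control cells (SD, n = 3 each; edgeR adjusted p = 0.923).

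eIF3, the largest initiation factor, holds the small subunit and the cap complex together. Of its 12 tested genes 8 were lower and none higher, beside 29.9% lower and 29.3% higher over all tested genes. Eif3g, whose protein binds RNA, changed most, with 55, 54.8 and 56.7 CPM in Dia2 cells, against 85.8, 84 and 74.4 CPM in control cells (1.47-fold lower, log2 fold change -0.55 ± 0.06, edgeR adjusted p = 5.12e-06). Eif3d, a subunit that can itself bind caps, had 168, 173 and 167 CPM in Dia2 cells, against 245, 239.9 and 218 CPM in control cells (-0.47 ± 0.05, edgeR adjusted p = 7.26e-06). Neither gene's groups overlapped. Eif3b, a core scaffold subunit, followed at -0.44 ± 0.05 (edgeR adjusted p = 2.37e-05), and Eif3k, Eif3l, Eif3c and Eif3m lay between -0.34 and -0.19. Eif3a, the largest subunit, had 595, 575 and 575 CPM in Dia2 cells, against 632, 625 and 627 CPM in control cells. The groups did not overlap, but the difference was small (-0.11 ± 0.04, edgeR adjusted p = 0.0406) and was not called in 5 of the 6 fits that left out 1 library (edgeR adjusted p of 0.0654 to 0.163). Eif3e, Eif3f, Eif3h and Eif3i did not pass, with values of -0.16 to -0.01, although without control replicate 3 Eif3f (-0.25), Eif3h (-0.11) and Eif3i (-0.08) did. The fold changes within the complex thus ran from -0.55 to -0.01, and the summed level was 2728 to 2765 CPM in Dia2 libraries and 3091 to 3288 CPM in control libraries. Eif3j was listed at 0 in all libraries; the row Gm9781, an older name of its near-identical copy Eif3j2, is listed over the same 25007 bases, so the level of Eif3j cannot be read from the table.

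Eif6, whose protein keeps the large ribosomal subunit from joining too early and takes part in making it, had 103, 103 and 106 CPM in Dia2 cells, against 164, 151 and 137 CPM in control cells. The groups did not overlap (1.45-fold lower, log2 fold change -0.54 ± 0.06, edgeR adjusted p = 8.94e-06).

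The most abundant of these transcripts per length encode elongation factors, and their changes were small. Eef1a1, which delivers aminoacyl-tRNA, had 5571, 5700.1 and 5631 CPM in Dia2 cells, against 5175, 5305 and 4839 CPM in control cells. It was 1.1-fold higher without overlap (log2 fold change 0.14 ± 0.04, edgeR adjusted p = 0.013), and it did not pass without a composition factor (edgeR adjusted p = 0.142) or with any Dia2 library left out (0.0545 to 0.0662). In its exchange complex, Eef1g had 1027, 1047 and 1044 CPM in Dia2 cells, against 1233, 1237 and 1091 CPM in control cells (-0.19 ± 0.05, edgeR adjusted p = 0.00791). Eef1d was lower, at -0.19 ± 0.07 with overlap (edgeR adjusted p = 0.0264), and Eef1b2, at -0.07, did not pass (edgeR adjusted p = 0.197). The call of Eef1d was lost in 4 of the 6 fits that left out 1 library, and Eef1b2 passed without control replicate 3 (-0.11, edgeR adjusted p = 0.00512). Eef1e1, a part of the multisynthetase complex despite its name, fell 1.28-fold (-0.35 ± 0.06, edgeR adjusted p = 0.000426). Eef1a2, the muscle and neuron form, was at 0.0641 CPM or less in every library and was not tested.

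Eef2, the translocation factor, had 3479, 3511 and 3574 CPM in Dia2 cells, against 3351, 3401 and 2933 CPM in control cells. The groups did not overlap, but the test was not passed (log2 fold change 0.13 ± 0.05, edgeR adjusted p = 0.0654). Control replicate 3 was the lowest, and without it the value was 0.06 and passed (edgeR adjusted p = 0.0364). Eef2k encodes the kinase that inactivates eEF2. It had 44.3, 45.9 and 46.4 CPM in Dia2 cells, against 35.1, 35.1 and 32.3 CPM in control cells, a 1.33-fold rise with no overlap (0.41 ± 0.06, edgeR adjusted p = 4.95e-05).

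The eIF5A paralogs also changed in opposite directions. Eif5a, the main form, had 627, 622 and 631 CPM in Dia2 cells, against 806, 768 and 735 CPM in control cells (1.23-fold lower, log2 fold change -0.30 ± 0.05, edgeR adjusted p = 0.000173). Eif5a2, a form of restricted expression that is raised in some tumours, had 31.4, 28.2 and 27.4 CPM in Dia2 cells, against 22.5, 20.4 and 24.7 CPM in control cells (1.29-fold higher, 0.36 ± 0.08, edgeR adjusted p = 0.00174). Neither gene's groups overlapped. Eif5a2 was a small part of the pair per length, at 1.84% ± 0.131 in Dia2 cells and 1.17% ± 0.15 in control cells (SD, n = 3 each; exact permutation p = 0.1).

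Levels of different genes can be compared only per length, here as CPM per kilobase of the deposited coding length. Eef1a1 was highest, at 3149 per kilobase in Dia2 cells and 2854 in control cells, followed by Eef2 at 1136 in Dia2 cells and 1041 in control cells and Eef1g at 664 in Dia2 cells and 758 in control cells. Eif4a1 was at 259 per kilobase in Dia2 cells and 419 in control cells, and Eif4a2 at 60.6 in Dia2 cells and 43 in control cells. Eif4ebp1 stood at 90.5 per kilobase in Dia2 cells and 95.9 in control cells, and Eif4ebp2 at 29 in Dia2 cells and 65.5 in control cells. The cap-binding protein Eif4e was at 33.5 per kilobase in Dia2 cells and 37.4 in control cells, so its transcript level per length was above that of Eif4ebp2 in Dia2 cells and below it in control cells. Eif4e2 was at 21.1 per kilobase in Dia2 cells and 13.5 in control cells. Because the lengths are of annotated genes, isoforms that differ between groups would shift these values.

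**Figure D4:**
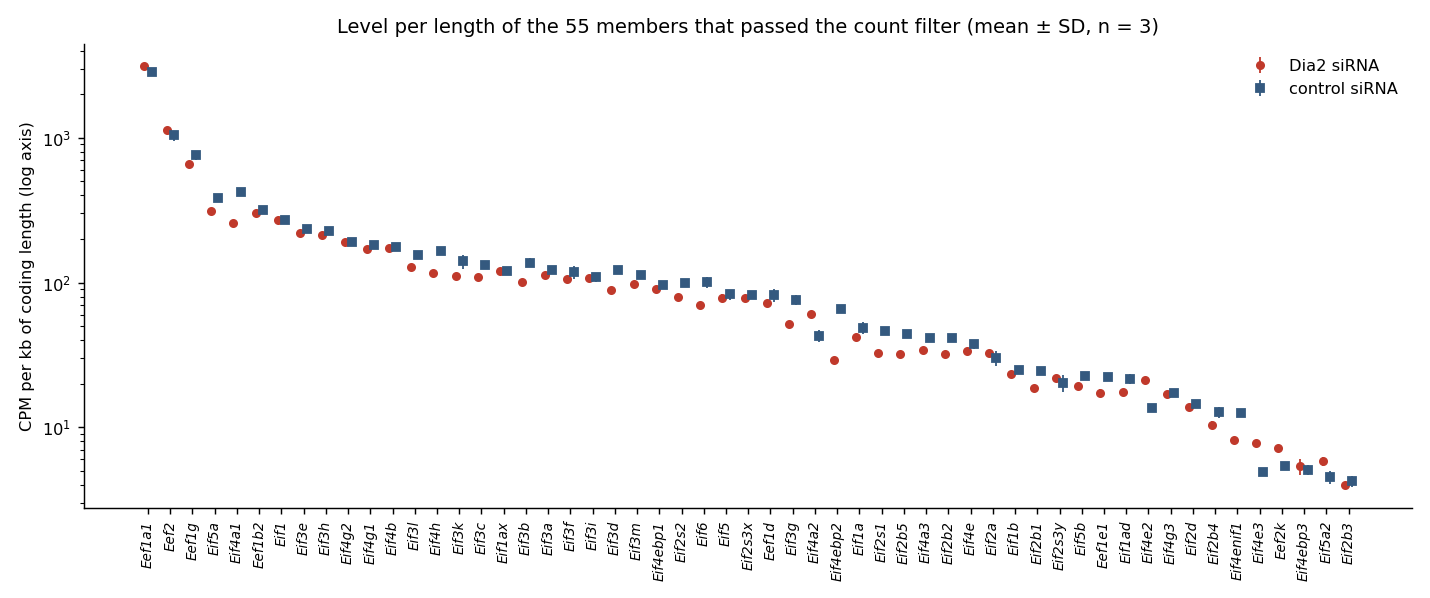
Level of each tested factor as CPM per kilobase of coding length (log axis; points are means of 3 libraries, bars ± SD), Dia2 siRNA left of control siRNA. Eef1a1, at 3149 in Dia2 cells and 2854 in control cells, is the highest and Eif2b3, at 4.01 in Dia2 cells and 4.22 in control cells, the lowest.

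Genes that act on these factors or beside them were read from 10 lists of 92 genes, all tested. Of the 92, 49 were lower (53.3%) and 14 higher (15.2%), with a median log2 fold change of -0.19. Called in either direction were 68.5% of the 92 and 59.2% of all tested genes, of which 29.9% were lower and 29.3% higher, and the counts of each list below stand beside those shares. Among the 4 kinases of eIF2α, Eif2ak3 (PERK, which senses the endoplasmic reticulum) rose to 62.5 ± 1.01 CPM in Dia2 cells, against 37.2 ± 0.69 CPM in control cells (SD, n = 3 each; 0.75 ± 0.05, edgeR adjusted p = 8.98e-08). Eif2ak4 (GCN2, which senses uncharged tRNA) and Eif2ak1 (HRI, which senses haem) fell, by 0.46 and 0.34 on the log2 scale. Of 5 genes of the eIF2α phosphatase 1 was higher and 3 were lower. Ppp1cb, a catalytic subunit, changed most, with 133 ± 13.2 CPM in Dia2 cells and 253 ± 33.7 CPM in control cells (-0.93 ± 0.09, edgeR adjusted p = 2.86e-06). Of the other catalytic subunits listed, Ppp1ca fell (-0.25) and Ppp1cc rose (0.23).

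Of 11 genes of the amino acid response, 5 were higher and 2 lower. Chac1, which degrades glutathione, rose 2.34-fold to 8.86 ± 0.861 CPM in Dia2 cells, against 3.81 ± 0.308 CPM in control cells (SD, n = 3 each; 1.22 ± 0.10, edgeR adjusted p = 7.63e-07). The cystine transporter Slc7a11 (0.78), the mTORC1 inhibitor Ddit4 (0.58) and asparagine synthetase Asns (0.37) rose as well. Atf4, the transcription factor that drives this response, was itself lower (-0.21 ± 0.05, edgeR adjusted p = 0.0019), and its targets Ddit3 and Trib3 had values of 0.01 and -0.02 that did not pass.

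In the mTORC1 list 7 of 11 genes were lower and none higher. Deptor and Akt1s1, which encode inhibitory partners of mTOR, fell most: Deptor had 12.7 ± 1.24 CPM in Dia2 cells and 25.1 ± 2.25 CPM in control cells (SD, n = 3 each; -0.98 ± 0.08, edgeR adjusted p = 1.07e-06), and Akt1s1 had 51 ± 0.907 CPM in Dia2 cells and 81.6 ± 6.83 CPM in control cells (-0.68 ± 0.06, edgeR adjusted p = 1.34e-06). The scaffold Rptor fell (-0.35), Mtor did not pass (-0.08, edgeR adjusted p = 0.265), and the translational regulator Larp1 fell (-0.24). The kinases that phosphorylate eIF4E moved apart, with Mknk2 at 0.39 (edgeR adjusted p = 9.68e-05) and Mknk1 at -0.34 (edgeR adjusted p = 0.000452), and Pdcd4, an inhibitor of eIF4A, did not pass (-0.02, edgeR adjusted p = 0.802).

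Poly(A)-binding proteins and their partners divided evenly, with 3 of 8 higher and 3 lower. Larp4 (-0.63) and the nuclear protein Pabpn1 (-0.39) fell, and Pabpc4 (0.58) and the abundant Pabpc1 (0.15) rose. Of 10 genes of termination, recycling and rescue, 4 were lower and 2 higher. The release factor Etf1 had 191 ± 10.6 CPM in Dia2 cells and 322 ± 28.7 CPM in control cells (SD, n = 3 each; -0.75 ± 0.07, edgeR adjusted p = 1.18e-06).

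No gene of the tRNA synthetase list or of the hypusine and diphthamide list was called higher. Of 22 cytosolic tRNA synthetases and partners, 15 were lower and none higher, led by both subunits of the phenylalanine enzyme, Farsb (-0.56) and Farsa (-0.55). Hars did not pass, and control replicate 3 stood apart for it, at 188 CPM beside 97.6 and 94.5 CPM in the other control libraries and 102 to 107 CPM in Dia2 libraries. Of 8 genes for the hypusine of eIF5A and the diphthamide of eEF2, 6 were lower and none higher. Dohh, which completes hypusine, fell to 55.8 ± 1.4 CPM in Dia2 cells, against 81.4 ± 8.6 CPM in control cells (-0.55 ± 0.07, edgeR adjusted p = 2.55e-05), and Dhps, which begins it, fell by 0.37 on the log2 scale. Dph1, which begins diphthamide, fell by 0.88 on that scale. Of 10 mitochondrial translation factors, 6 were lower, with Tufm, the mitochondrial counterpart of eEF1A, at -0.44, and 1 was higher.

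**Figure D5:**
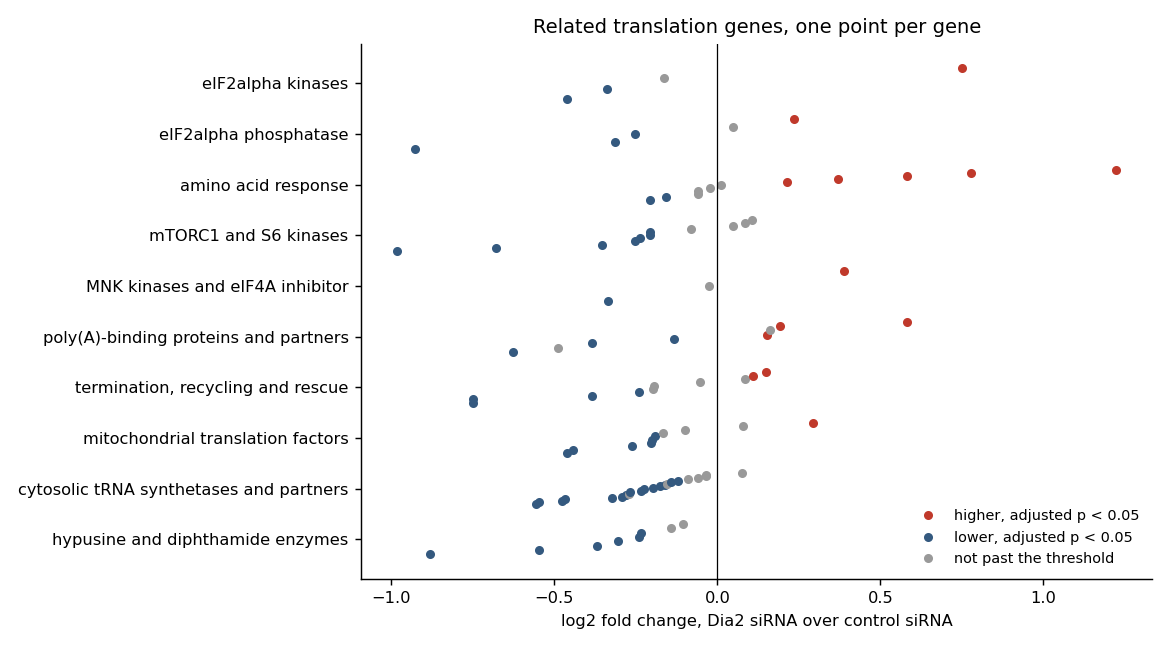
Log2 fold change, Dia2 siRNA over control siRNA, of 92 genes in 10 lists that act on or beside the factors (1 point per gene), with colour for the call at an adjusted p of 0.05. No gene of the mTORC1, tRNA synthetase or hypusine and diphthamide lists was called higher, and Chac1 at 1.22 is the point farthest to the right.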

How the data were processed

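RNA sequencing was done on 6 libraries, 3 with Dia2 siRNA and 3 with control siRNA, grouped by sample title. The deposited table gives for each gene, per the file headers, a gene count, an RPKM value and a coding length. The deposited counts were used for all tests, and the authors' RPKM values, per kilobase of coding length, were not used. The submitters' processing notes name bcl2fastq, TopHat2 2.0.6 and HTSeq. These notes name human builds, but of 20759 rows whose symbol matched a RefSeq gene 99.3% overlapped that gene in GRCm38.p6, so coordinates were read as GRCm38. No source used here says how strand and multiply mapped reads were handled, so counts of overlapping genes and of near-identical copies may be shared. All counts were even (0 odd in 23358 rows), so independent fragments may be as few as the count divided by 2. Floors cover counting error only. Replicates differed by more than sampling noise (chi-square per degree of freedom 7.04 to 90.7, with Rn45s included). The largest values, 82.2 and 90.7 with control replicate 3 and 60.3 with Dia2 replicate 1, involved the libraries richest in Rn45s. All 6 libraries were kept.

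Genes were filtered with filterByExpr (a cut in CPM equal to 10 counts at the median library size, required in at least 3 libraries, and 15 counts overall), normalised by TMM and compared by edgeR's quasi-likelihood test (edgeR 4.0.16, limma 3.58.1, R 4.3.3) with Benjamini-Hochberg adjustment at 0.05. Each SE was taken as |log2 fold change| over the root of F. The scripts were tested on simulated data. Members and lists were chosen with earlier results of these data known. Values in every library are given for the 12 members with the largest absolute log2 fold change among those called with a mean of at least 2 CPM, and for Eif2s1, Eif3a, Eif4e, Eif4g1, Eif4ebp1, Eif5a, Eif6, Eef1a1, Eef2 and Eef2k; values of Eef1g, Eif5a2 and Hars in every library were added after they were seen. From each related list up to 4 called genes with the largest change could be named, and the other genes named describe their list. Alternatives were DESeq2 size factors, upper-quartile factors, no composition factor, 2 other filters, DESeq2 1.42.0, limma-voom, counts divided by 2, removal of Rn45s and Lars2, a replicate block and each library left out. Promoters came from RefSeq (GRCm38.p6) and 3′ UTRs from GENCODE M21 (GRCm38).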

Additional observations from a re-analysis of the deposited data

How the results depend on the processing

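Counts of factors, of related genes and of all genes stayed within 1.5 times their reported values under every alternative run. With each library left out in turn, 5 to 9 factors were higher and 24 to 34 lower, with medians of -0.15 to -0.13. In the same fits 3651 to 4512 of all tested genes were higher and 3677 to 4681 lower. The median over the factors was -0.12 with upper-quartile factors, which also moved the median of all genes to 0.04; the cause was not tested. Of 34 called factors, 29 (5 higher, 24 lower) kept call and direction under every setting, and Eef1a1, Eef1d, Eif1a, Eif3a and Eif4e did not; none of the 34 changed sign. Leaving out both libraries with the most Rn45s (Dia2 replicate 1 and control replicate 3), a fit chosen after seeing the data, 9 factors were higher and 37 lower, and over all genes 4365 were higher and 4619 lower. Shares of paralogs with libraries left out were also chosen then. Deviations of same-numbered libraries from their group means correlated at -0.08, -0.02 and -0.19, and none matched its own number best. This check rests on means of 3 libraries, so it cannot exclude a pairing that the labels leave unstated. With the replicate block 6 factors were higher and 25 lower, and Eef1d, Eif3a and Eif4e lost their calls. Over all tested genes that fit gave 3877 higher and 3895 lower. Among factors that did not pass, signs reversed near 0. With upper-quartile factors these were Eif1 (0.0295), Eif3i (0.0218), Eif4b (0.0192), Eif4g2 (0.0321) and Eif4g3 (0.00378). With a mean of at least 1 CPM they were Eif1 (0.0125), Eif3i (0.00489), Eif4b (0.00221) and Eif4g2 (0.0152). Halved counts gave 0.000649 for Eif4g2. Eif1ax was at -0.00828 with no composition factor and -0.000133 without Rn45s and Lars2. With each library left out, values ran from -0.0265 to 0.000845 for Eif1, -0.0251 to 0.0579 for Eif1ax, -0.0796 to 0.0137 for Eif3i, -0.0397 to 0.0257 for Eif4g2 and -0.0252 to 0.164 for Eif4ebp3. Depth limits Eif4e1b and Eef1a2, which were at or near the floor.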
